A study of Mus musculus with 18 samples.

Results

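A set of 10 genes of the piRNA pathway were followed in cultured mouse testis. They were the 10 rows, of 22657 in the expression table, whose NCBI gene number maps to Piwil1, Piwil2, Piwil4, Mov10l1, Pld6, Henmt1, Asz1, Ddx4, Mael or Gtsf1. The genes were taken for their roles and not by a measured value, though earlier results of these data were known at the time. Testes came from ICR mice that had received busulfan once at 3 weeks of age, at 40 µg per g body weight, or from age-matched mice without busulfan, and all were collected 2 weeks after the injection. Busulfan is an alkylating anti-cancer drug that kills male germ cells. Whole testes were then kept for 48 h in DMEM/F12 medium with fetal bovine serum and alginate oligosaccharides (AOS), which are short sugar chains cut from a seaweed polymer. AOS was at 0, 10 or 50 µg per mL, which gave the groups A0, A10 and A50 without busulfan and B0, BA10 and BA50 with it, each with 3 samples of poly(A) RNA (AOS0, AOS10, AOS50, B+A0, B+A10 and B+A50 in the labels). The study's methods give 6 testes per treatment and 3 repeats, so a sample may hold several animals, and nothing states that the 3 samples of a group came from separate cultures. The p-values therefore measure the spread between these samples, which may be technical.

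PIWI proteins are Argonaute proteins of the germ line that bind small guide RNAs called piRNAs. A piRNA directs its PIWI protein to transcripts of transposable elements, which are then cut, or whose genomic copies are silenced. In the mouse testis, PIWIL2 (MILI) acts from fetal germ cells into meiosis, PIWIL4 (MIWI2) acts in fetal germ cells around the time of DNA methylation, and PIWIL1 (MIWI) appears in pachytene spermatocytes and stays into round spermatids. Precursor transcripts are handled by the RNA helicase MOV10L1 and by PLD6, a nuclease on the outer face of mitochondria, and HENMT1 methylates the 3′ end of the finished piRNA. ASZ1 is a germ cell protein at mitochondria, while DDX4 (the mouse VASA homolog), MAEL and GTSF1 are partners of the PIWI proteins, DDX4 and MAEL in the germ granules called nuage.

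Values were FPKM (fragments per kilobase of transcript, scaled to all mapped fragments), a scale per length on which levels of different genes can be set side by side. Read depth per sample was not given, so no counting error can be attached to a low value. Differences were fitted with limma on log2(FPKM + 1) for the 15790 genes at 1 FPKM or more in at least 3 samples, with all 18 samples in 1 fit. A gene was called at a Benjamini-Hochberg adjusted p under 0.05 over those genes. The filter was passed by 9 of the 10 genes, and Piwil4 did not pass. Because 1 is added before the logarithm, the fitted change understates the fall of genes near 1 FPKM.

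Sertoli and germ cell genes were present in every group, as the labelled tissue requires, and the libraries differed in their makeup. Summed FPKM of 7 Sertoli cell genes was 3198 to 4433 in A0 and 3213 to 4581 in B0. Clu made most of this sum, at 2633.58 to 3713.78 in A0 and 2691.49 to 3826.4 in B0, and Amh did not pass the filter. All 8 early spermatocyte genes were called lower after busulfan, by 1.44 to 5.56 on the log2 scale, and their sum was 333 to 424 in the untreated samples against 26 to 52.1 in the busulfan samples. Of 8 spermatogonia genes, 5 were called lower and 1 higher (Etv5, by 0.28, adjusted p = 0.037, limma), and Zbtb16 (-0.32, 0.0637) and Gfra1 (-0.27, 0.172) were not called. Stra8 and Sall4 had the lowest values of this list, at 0.12 FPKM or less in every busulfan sample. None of 6 round spermatid genes and none of 9 elongating spermatid genes was called in either direction. In B0 the sum of 4 fat genes was 194 to 783, against 61.1 to 83 in A0, and the sum of 3 simple epithelium genes was 57.1 to 153 against 5.41 to 19. A10 replicate 3 stood apart from its group, as its expression correlated with that of its replicates at r = 0.929 and 0.941 and it had a Sertoli sum of 1122. In whole testis, fewer cells of a type and less RNA per cell cannot be told apart.

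In untreated testis the 10 genes spanned nearly 3 orders of magnitude. Mael led with 351 ± 65.9 FPKM in A0 (SD, n = 3), followed by Gtsf1 at 138 ± 31.4 and Ddx4 at 89.4 ± 16. No sample of one of these genes reached into the range of the next. Piwil2 at 19.6 ± 0.146, Mov10l1 at 18.1 ± 0.97 and Piwil1 at 16.3 ± 6.59 came next, and the Piwil1 samples, from 9.13 to 22.06, overlapped both of the others. Asz1 followed at 7.97 ± 1.19. Pld6 at 5.7 ± 1.25 and Henmt1 at 4.84 ± 0.719 overlapped each other, and Piwil4 was last at 0.4 ± 0.07. In B0 the first 3 places were unchanged, but Mov10l1 at 0.413 ± 0.183 had moved below Asz1, Henmt1, Piwil1 and Pld6 to the ninth place, just above Piwil4 at 0.227 ± 0.0764. Among the genes tested, Mov10l1 went from the percentile 66.1 of mean level in A0 to 1.8 in B0 and Piwil1 from 63.2 to 5.4, while Mael stood at 98.9 and 98.2. The genes tested include some, Mov10l1 among them, that passed the filter through untreated samples alone.

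**Figure D1:**
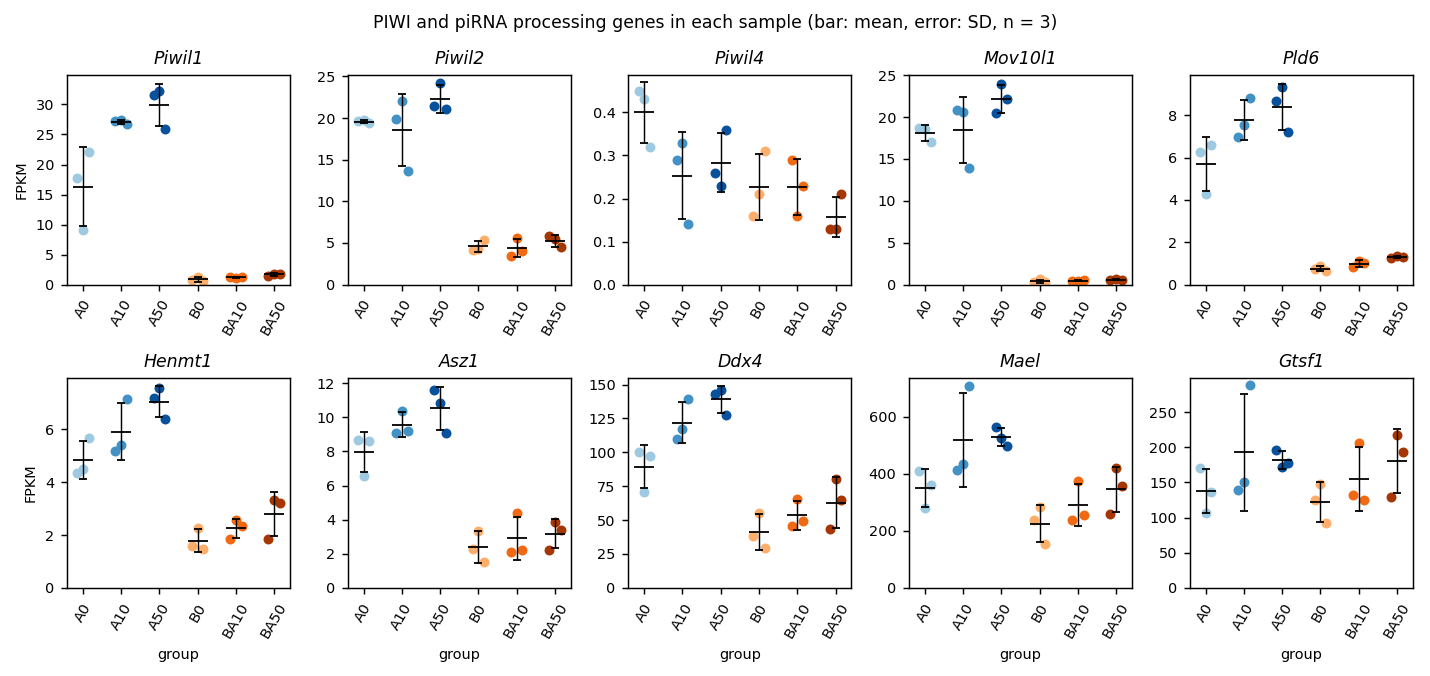
FPKM of each gene (vertical axes, each from 0) in every sample of the 6 groups (horizontal axes), with the bar at the group mean and the error bar at the SD of 3 samples. Mov10l1, Piwil1, Piwil2, Pld6, Asz1 and Henmt1 show no overlap between the 9 untreated samples (blue) and the 9 busulfan samples (orange and brown), whereas Ddx4, Mael, Gtsf1 and Piwil4 overlap.

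The first question was how far busulfan lowered each gene, and the genes fell by very unequal amounts. Over the 3 AOS doses, 8 of the 9 genes tested were called lower after busulfan and none was called higher. Over all genes tested, 24.8% were called lower in the same comparison. The median change of the 9 genes was -1.47, and that of all genes tested was 0.012. The untreated and busulfan samples did not overlap in 6 of the 9, against 9.66% of all genes tested that were lower without overlap. For the genes called, the ratio of the untreated to the busulfan mean ran from 39.4 for Mov10l1 to 1.63 for Mael. The split over all genes depended on scaling, with 3921 genes lower and 2097 higher as deposited, 3442 and 2919 after upper quartile scaling and 3441 and 3658 after quantile normalization.

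The promoters of the pair with the deepest falls and of the pair with the smallest differences are shown because they mark the ends of that range. The set of RefSeq promoters used here (GRCm38.p6) covered 9 of the 10 genes and had no entry for Piwil2. The 250 bases before the start site are printed 5′ to 3′ on the gene's strand, with matches to the MYB motif AACNGNC, on either strand, in capitals.
Piwil1, chr5:128735996-128736245, plus strand: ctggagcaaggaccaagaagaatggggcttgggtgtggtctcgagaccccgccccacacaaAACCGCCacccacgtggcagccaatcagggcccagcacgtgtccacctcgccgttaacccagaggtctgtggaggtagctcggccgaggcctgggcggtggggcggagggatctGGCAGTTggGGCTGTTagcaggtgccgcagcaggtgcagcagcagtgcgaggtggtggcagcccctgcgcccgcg
Mov10l1, chr15:88982744-88982993, plus strand: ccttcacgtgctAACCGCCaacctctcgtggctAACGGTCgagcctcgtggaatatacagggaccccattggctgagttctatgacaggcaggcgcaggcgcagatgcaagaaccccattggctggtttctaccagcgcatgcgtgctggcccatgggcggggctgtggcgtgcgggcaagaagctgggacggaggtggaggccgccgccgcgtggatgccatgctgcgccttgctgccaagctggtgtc
Mael, chr1:166238745-166238994, minus strand: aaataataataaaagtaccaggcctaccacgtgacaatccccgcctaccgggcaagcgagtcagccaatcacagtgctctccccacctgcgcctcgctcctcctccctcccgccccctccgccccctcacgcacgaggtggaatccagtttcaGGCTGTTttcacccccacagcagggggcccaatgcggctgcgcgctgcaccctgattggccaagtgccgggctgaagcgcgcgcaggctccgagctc
Gtsf1, chr15:103430428-103430677, minus strand: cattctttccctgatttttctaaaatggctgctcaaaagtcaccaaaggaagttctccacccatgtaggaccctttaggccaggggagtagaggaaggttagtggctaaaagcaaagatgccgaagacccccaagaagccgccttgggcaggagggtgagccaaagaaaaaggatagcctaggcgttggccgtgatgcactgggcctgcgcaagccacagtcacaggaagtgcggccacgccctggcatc

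The MYB letters were sought because A-MYB, the product of Mybl1, is the known activator of many piRNA pathway genes at the pachytene stage. The Piwil1 window held 3 matches, whose first bases lay 189, 75 and 66 bases before the start, and the Mov10l1 window held 2, at 238 and 217 bases. The Mael window held 1 match at 97 bases, and the windows of Gtsf1, Pld6, Henmt1, Asz1, Ddx4 and Piwil4 held none. None of these matches overlapped another motif searched. Of all 32851 promoter windows of this length, 27.7% held the MYB letters, so 3 of 9 genes was close to the background. The share of windows with more than 1 match was not obtained, so nothing can be read from the number of matches per window. The E-box CACGTG was in 5 of the 9 genes and 6.02% of all windows, and the GC box GGGCGG in 7 of 9 and 32.7%. The windows of these genes with an E-box had a GC content of 61.6% to 70.4%, against a median of 52.4% over all windows. The shares over all windows were not matched for GC content, so no enrichment can be read from them. The X-box half-site GTTGCC was in 1 (Pld6) and 10.4%, and the cAMP response element TGACGTCA in 0 and 1.55%, both strands being searched each time. The Pld6 match lay before the downstream start site of that gene, and the window of its upstream site held none. Where a gene had more than one start site (Piwil4 and Pld6), a match at any of them was counted. A match describes the letters only, and binding was not measured.

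Among the PIWI proteins, Piwil1 fell furthest. It stood at 17.77, 9.13 and 22.06 FPKM in A0, at 27.27, 27.36 and 26.72 in A10 and at 31.56, 32.18 and 25.92 in A50. With busulfan it was at 0.75, 1.29 and 0.56 in B0, at 1.29, 1.11 and 1.30 in BA10 and at 1.41, 1.85 and 1.81 in BA50. The highest busulfan sample was well under the lowest untreated one, A0 replicate 2. The change over doses was -3.44 ± 0.13 (log2, SE; adjusted p = 3.6e-11, limma), and the ratio of means was 19.3.

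Piwil2 fell less and kept a measurable level in every busulfan sample. Its values were 19.59, 19.71 and 19.42 FPKM in A0, 19.93, 22.04 and 13.66 in A10, and 21.47, 24.18 and 21.13 in A50. After busulfan they were 4.18, 4.23 and 5.36 in B0, 3.45, 5.56 and 4.09 in BA10, and 5.84, 5.45 and 4.47 in BA50. The groups did not overlap, and the 3 A0 samples lay closer together than those of any other group. The change was -1.88 ± 0.10 (adjusted p = 8.84e-10, limma) and the ratio of means 4.25.

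Piwil4, the fetal PIWI gene, was low in all 18 samples. It was listed at 0.45, 0.43 and 0.32 FPKM in A0, at 0.29, 0.33 and 0.14 in A10, and at 0.26, 0.23 and 0.36 in A50. With busulfan it was at 0.16, 0.21 and 0.31 in B0, at 0.29, 0.16 and 0.23 in BA10, and at 0.13, 0.13 and 0.21 in BA50. All 3 A0 samples lay above all 3 B0 samples, but over all doses the untreated range, 0.14 to 0.45, overlapped the busulfan range, 0.13 to 0.31. Piwil4 was under 1 FPKM throughout and did not pass the filter, so the main fit gives no test of it.

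Of the genes that make piRNAs, Mov10l1 showed the largest fall of the 9. The helicase gene was at 18.73, 18.58 and 16.98 FPKM in A0, at 20.88, 20.65 and 13.89 in A10, and at 20.52, 23.89 and 22.14 in A50. It was at 0.35, 0.62 and 0.27 in B0, at 0.47, 0.42 and 0.59 in BA10, and at 0.52, 0.65 and 0.58 in BA50. Every busulfan sample was under 1 FPKM, so Mov10l1 passed the filter through its untreated samples alone. The change was -3.77 ± 0.08 (adjusted p = 1.14e-13, limma).

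Pld6, the mitochondrial nuclease gene, ranged from 4.26 to 9.31 FPKM in the 9 untreated samples (median 7.21) and from 0.63 to 1.36 in the 9 busulfan samples (median 1.04). The change was -2.03 ± 0.08 (adjusted p = 5.43e-11, limma). Asz1 ranged from 6.59 to 11.61 (median 9.11) without and from 1.51 to 4.38 (median 2.3) with busulfan, a change of -1.47 ± 0.13 (adjusted p = 4.21e-07, limma). Neither gene had a busulfan sample within its untreated range. Henmt1, whose product protects finished piRNAs by methylation, ranged from 4.36 to 7.57 (median 5.67) and from 1.49 to 3.32 (median 2.28). Its fall of 1.09 ± 0.10 (adjusted p = 4.92e-07, limma) was the smallest of the 4 genes of this role, again without overlap.

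Among the PIWI partners, Ddx4 changed about as much as Henmt1, and Mael and Gtsf1 changed less than any other gene tested. Ddx4, often used as a general germ cell marker, was at 100.09, 71.04 and 97.02 FPKM in A0 and at 38.55, 55.19 and 29.10 in B0. These did not overlap, yet the highest BA50 sample, at 80.49, was above the lowest A0 sample. Its change over doses was -1.17 ± 0.14 (adjusted p = 7.47e-06, limma). Mael was at 410.94, 280.50 and 362.18 in A0 and at 237.52, 282.76 and 155.50 in B0, so that B0 replicate 2 exceeded A0 replicate 2. The change over doses was -0.71 ± 0.15 (adjusted p = 0.00181, limma).

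Gtsf1, whose product assists PIWI proteins in cutting their targets, was the only one of the 9 not called. Its values were 169.97, 107.20 and 137.09 FPKM in A0 and 124.78, 148.29 and 91.91 in B0. Of the 3 B0 samples, 2 lay within the A0 range. The change over doses was -0.17, with a 95% interval from -0.53 to 0.19 (adjusted p = 0.446, limma). Mael, Gtsf1 and Ddx4 were also the 3 most abundant of the 10. Of the late spermatocyte genes, 5 of 6 were called lower, by 0.41 to 2.35, and the spermatid genes, as given above, were not. What part the makeup of germ cell stages had in the order of the falls was not tested.

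**Figure D2:**
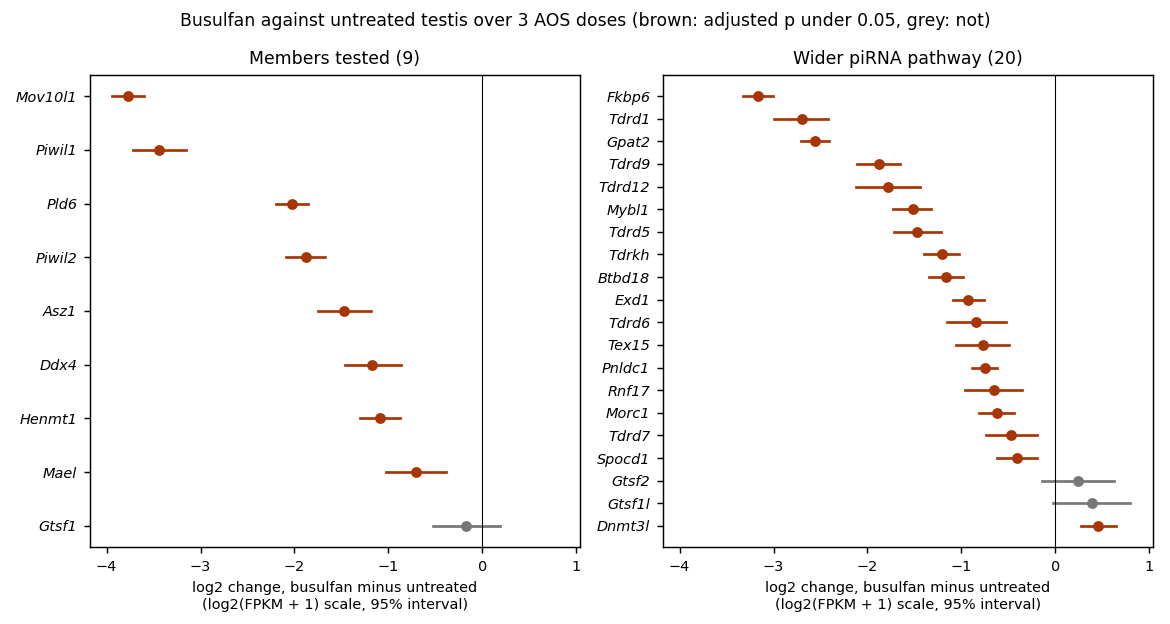
Change between the 9 busulfan and the 9 untreated samples (horizontal axis, log2 of FPKM + 1, busulfan minus untreated) for the 9 genes tested (left) and 20 further pathway genes (right), with 95% intervals. Brown marks an adjusted p under 0.05. The 9 genes run from -3.77 for Mov10l1 to -0.17 for Gtsf1, and of the 20 further genes Dnmt3l alone was called higher.

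Each dose of AOS gave much the same picture. In B0 against A0, 7 of 9 genes were called lower, where 12.3% of all genes tested were. In BA10 against A10 the count was 8, against 15.2%, and in BA50 against A50 it was 7, against 16.2%. The call that differed was that of Mael, which changed by -0.66 (adjusted p = 0.121, limma), -0.82 (0.0404) and -0.64 (0.106) in turn. Without A10 replicate 3, the A10 sample with the highest Mael value (709.72 FPKM), the BA10 change was -0.58 and not called (adjusted p = 0.186, limma). For Mov10l1 the 3 changes were -3.76, -3.68 and -3.87, and for Piwil1 -3.15, -3.66 and -3.52. In BA10 the fat sum was 66.7 to 121, above the 41.1 to 60.1 of A10 in every sample, and the epithelium sum was 5.38 to 12 against 6.3 to 9.51. The part of these genes in the falls was not tested.

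The relation between members within a sample changed as well. The log2 ratio of Piwil1 to Piwil2 (FPKM + 1) averaged 0.21 ± 0.54 (SD) in the 9 untreated samples and -1.35 ± 0.36 in the 9 busulfan samples. The difference of -1.56 gave p = 0.000123 by a two-sided exact permutation test over 48620 arrangements (0.000165 adjusted over 4 ratios). Against Ddx4, Piwil1 fell by 2.28, from -2.25 ± 0.26 to -4.53 ± 0.25, with the smallest p the exact permutation test can give (4.11e-05; adjusted 8.23e-05). In these samples Piwil1 thus fell more than the germ cell marker and more than Piwil2.

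Piwil2 against Ddx4 moved by -0.72, from -2.46 ± 0.39 to -3.18 ± 0.46 (exact permutation p = 0.00399, adjusted 0.00399). Here the ranges overlapped, and without the replicates numbered 2 the difference was -0.45 (adjusted p = 0.104, exact permutation). Piwil4 against Piwil2 rose by 1.76, from -4.00 ± 0.20 to -2.24 ± 0.26 (exact permutation p = 4.11e-05, adjusted 8.23e-05). With Piwil4 under 0.5 FPKM throughout, this ratio mainly carries the fall of Piwil2, and its p-value is not a separate result. The ratios of Piwil1 to Ddx4 and of Piwil4 to Piwil2 did not overlap between untreated and busulfan samples, while Piwil1 to Piwil2 overlapped at A0 replicate 2 alone (-1.03, against a busulfan range of -2.03 to -0.96).

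**Figure D3:**
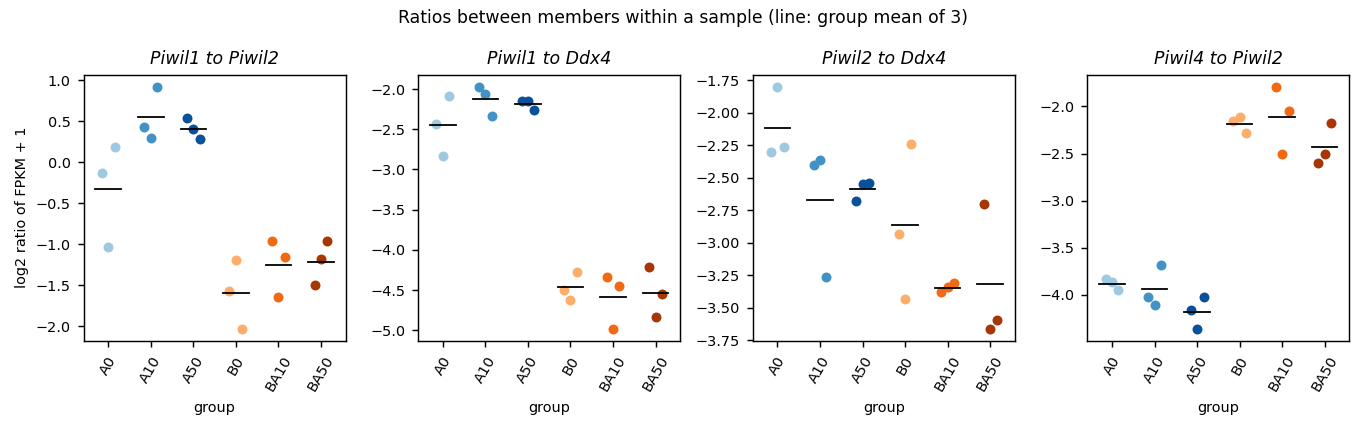
Log2 ratio of FPKM + 1 between pairs of genes (vertical axes) in each sample of the 6 groups (horizontal axes), with a line at the group mean of 3 samples. The Piwil1 to Ddx4 ratio lies between -2.83 and -1.97 in untreated and between -4.98 and -4.21 in busulfan samples, whereas the Piwil2 to Ddx4 ratio overlaps.

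The wider pathway was read from 20 further genes, all of which passed the filter. Over the AOS doses 17 of them were called lower, 1 was called higher and 2 were not called, with a median of -0.88, against the 24.8% of all genes called lower. The 3 largest falls were those of Fkbp6, a co-chaperone (-3.16 ± 0.07, adjusted p = 3.47e-13, limma), Tdrd1, a Tudor protein that binds MILI (-2.70 ± 0.13, 5.74e-10), and Gpat2, a mitochondrial acyltransferase-like protein (-2.56 ± 0.07, 1.63e-12). Mybl1, the gene of A-MYB, fell by 1.52 ± 0.10 (adjusted p = 9.53e-09, limma). Dnmt3l, the cofactor of de novo DNA methylation in fetal germ cells, was called higher by 0.46 ± 0.09 (adjusted p = 0.000873, limma), with overlapping samples. The pair not called were Gtsf1l (0.39 ± 0.19, adjusted p = 0.121) and Gtsf2 (0.24 ± 0.18, 0.307), both relatives of Gtsf1. The 3 genes of the Gtsf family in these lists were thus the ones not called, which was noticed after their values were seen.

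The second question was whether AOS in the medium moved these genes, and none was called at either dose with or without busulfan. In A10 against A0, A50 against A0, BA10 against B0 and BA50 against B0, 0 of 9 genes passed, where 0%, 0%, 0.0253% and 0.095% of all genes tested did in either direction. At an unadjusted p under 0.05 by limma, 2, 5, 0 and 5 of the 9 were higher and none was lower. The same measure took in 4.51%, 9.85%, 1.89% and 12.7% of all genes tested. The smallest adjusted p of the 9 was 0.322, 0.187, 0.749 and 0.125 in turn. Both alternative fits with weighted samples called some of these genes, as given with the alternatives.

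In untreated testis the direction at 50 µg per mL was uniform. Every A50 sample exceeded every A0 sample in 9 of the 9 genes tested, against 17.6% of all genes tested. The largest difference was that of Piwil1, 29.9 ± 3.45 against 16.3 ± 6.59 FPKM, or 0.91 ± 0.23 on the log2 scale (95% interval 0.43 to 1.39, adjusted p = 0.187, limma). Pld6 was at 8.4 ± 1.08 against 5.7 ± 1.25 and Ddx4 at 139 ± 9.97 against 89.4 ± 16. Piwil2 differed least, at 22.3 ± 1.67 against 19.6 ± 0.146. A0 replicate 2 was the lowest A0 sample for Piwil1, Asz1, Gtsf1, Pld6, Ddx4 and Mael. Beside this, the late spermatocyte sum was 1802 to 1944 in A50 against 910 to 1463 in A0. Ldhc made most of the late spermatocyte sum in every sample, with 643.69 to 1024.33 FPKM in A0 and 1280.81 to 1401.76 in A50. The Sertoli sum was 2514 to 3397 in A50 against 3198 to 4433 in A0. What part these sums had in the difference was not tested.

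At 10 µg per mL the A10 samples were all above the A0 samples for Piwil1, Pld6, Asz1, Ddx4 and Mael, which is 5 of 9 against 7.81% of all genes tested. Piwil1 was the most uniform, with all 3 A10 samples between 26.72 and 27.36 FPKM. Piwil2 and Mov10l1 were not higher, with changes of -0.10 (95% interval -0.46 to 0.26) and 0.01 (-0.29 to 0.30). In A10 replicate 3 both had their lowest untreated value, 13.66 and 13.89 FPKM, while Mael and Gtsf1 had their highest of all 18 samples, 709.72 and 289.2.

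After busulfan, AOS at 10 µg per mL gave no gene without overlap, against 3.64% of all genes tested that were higher in that way. At 50 µg per mL, Piwil1 and Pld6 were higher without overlap, against 11.2% of all genes tested. Piwil1 was at 1.69 ± 0.243 in BA50 and 0.867 ± 0.379 FPKM in B0, a change of 0.54 ± 0.23 (adjusted p = 0.167, limma). Pld6 was at 1.31 ± 0.0611 against 0.747 ± 0.115, a change of 0.40 ± 0.14 (adjusted p = 0.125, limma). Samples of these groups with the same number deviated together, and 7 of the 9 genes (all but Piwil2 and Asz1) were higher in BA50 in all 3 same-number pairs, against 23.6% of all genes tested. A fit of B0 and BA50 with the number as a block called none of the 9, with adjusted p of 0.194 or more (limma), and 0 of all genes tested. That fit had far fewer residual degrees of freedom than the main one, so its lack of calls cannot show that there was no difference. Piwil1 and Pld6 in BA50 stayed far below A0, at 10.4% and 22.9% of its mean. Mov10l1 in BA50 was at 3.22% of the A0 mean, Piwil2 at 26.8%, Ddx4 at 70.4% and Mael at 98.4%.

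Within BA50, replicate 1 was the lowest sample for 8 of the 9 genes tested, all but Piwil2, and Ddx4 was at 43.49 against 80.49 and 64.74 FPKM. Without it, Henmt1 (0.63, adjusted p = 0.0437, limma) and Ddx4 (0.85, 0.0478) were called higher than in B0, and the number of all genes called went from 15 to 1115. The late spermatocyte sum was 1066 to 1729 in BA50 against 623 to 1100 in B0, and the elongating spermatid sum 6403 to 13256 against 3040 to 4268. The fat sum was 100 to 136 against 194 to 783, and the epithelium sum 7.19 to 8.18 against 57.1 to 153. The part of these in the differences of the 9 genes was not tested.

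**Figure D4:**
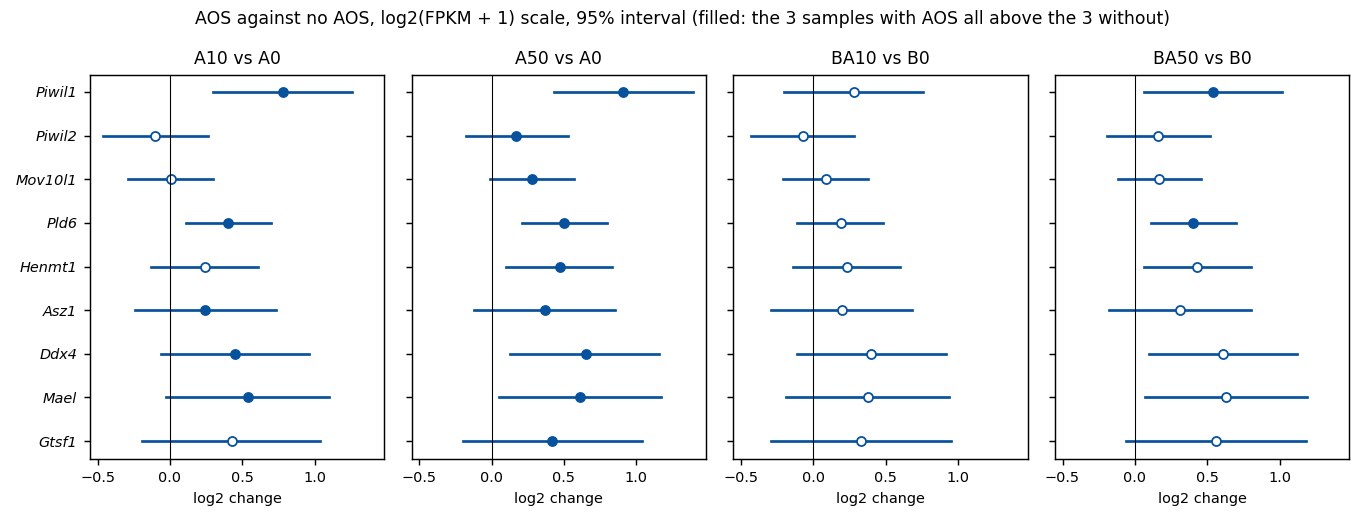
Change with AOS against no AOS (horizontal axes, log2 of FPKM + 1) for the 9 genes tested in untreated (A10, A50) and busulfan-treated testis (BA10, BA50), with 95% intervals. A filled point marks a gene whose 3 samples with AOS were all above the 3 without, which held for 5, 9, 0 and 2 genes from left to right, and no adjusted p was under 0.05.

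Whether AOS acted differently after busulfan was tested as the difference of the changes. None of the 9 genes was called at either dose, as for 0% of all genes tested, and none had an unadjusted p under 0.05 by limma. The largest estimate was that of Piwil1 at 10 µg per mL, -0.50 with a 95% interval from -1.18 to 0.18 (adjusted p = 0.91, limma). At 50 µg per mL it was -0.37, from -1.05 to 0.31 (adjusted p = 0.951, limma). The intervals leave room for differences of about 1 on the log2 scale. Among the 20 further pathway genes, none was called with AOS in any of the 4 comparisons, and at an unadjusted p under 0.05 by limma 5, 9, 0 and 6 of 20 were higher, beside 4.51%, 9.85%, 1.89% and 12.7% of all genes tested.

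The genes also differed in how they varied between samples of 1 group. Deviations from the group means were correlated over the 18 samples for each pair, which is a description since the members of a pair share a library. Mael, Gtsf1, Ddx4, Asz1 and Henmt1 varied together, with r from 0.68 to 0.97, the highest being that of Mael and Gtsf1. Piwil2 and Mov10l1 did not follow these 5 genes, with r from -0.38 to 0.22, and correlated with each other at 0.40. Pld6 correlated with the same 5 genes at 0.57 to 0.69 and Piwil1 at 0.39 to 0.61, and Piwil1 with Pld6 at 0.80 and with Piwil2 at -0.15. In A10 replicate 3, Mael and Gtsf1 were at their highest, 709.72 and 289.2 FPKM. Piwil2 and Mov10l1 were at their lowest untreated values there, 13.66 and 13.89. How far that sample alone carried the groupings was not tested. These groupings were noticed after the values were seen.

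Piwil1 and Piwil2 did not overlap between untreated and busulfan samples, so a correlation over all 18 samples carries that difference. By the Pearson correlation of log2(FPKM + 1) over the 18 samples, the genes most like Piwil1 were 1700006A11Rik (0.997), Prok2 (0.997) and Pld6 (0.996). On deviations from the group means these had r of 0.89, 0.93 and 0.80. The genes most like Piwil2 were Fam83d (0.990), Elavl2 (0.989) and Stra8 (0.986), with 0.84, 0.80 and 0.60 on deviations. Those most like Piwil4 were Kdm1b (0.902), Exoc3l2 (0.881) and Mettl2 (0.867), with 0.81, 0.74 and 0.74. Piwil4 itself was at 0.45 FPKM or less in every sample, where the error is unknown. All of these genes were picked as the highest among all genes tested. The r on deviations comes from the same samples, so both values only describe these data. Stra8 is the retinoic acid response gene at meiotic entry, and Kdm1b encodes a histone demethylase.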

How the data were processed

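Per the study's methods and the submitters' processing notes, poly(A) RNA of 18 cultured testis samples was sequenced, and the notes name HISAT, Bowtie2, RSEM and the mouse build GRCm38.p5, while the supplementary methods name another aligner and RPKM. The deposited values are FPKM with 2 decimals, made by the authors, for 22657 genes, of which 20656 received a symbol through their NCBI gene number, while 1846 carry a provider ID in its place. The series' design text gives AOS per body weight, but the sample labels give it per mL of medium, which was used. Groups follow the labels. Read depth is not given in the sources used here.

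From these values log2(FPKM + 1) was fitted with limma 3.58.1 in R 4.3.3 (empirical Bayes with a trend, 6 group means, 12 residual degrees of freedom) for the 15790 genes at 1 FPKM or more in at least 3 samples. In all, 10 comparisons were made, with Benjamini-Hochberg adjustment over all genes tested in each. The 4 ratios were tested by exact permutation, adjusted over the 4. The fit was tested on simulated data. Same-number samples of B0 and BA50 deviated together (r from 0.14 to 0.56), so that comparison was also fitted with the number as a block. The 10 genes and the lists were chosen with earlier results of these data known. Wider pathway genes are given as counts, with values for the 3 largest changes among those called and for those that were named after their values were seen. Alternatives were a pseudocount of 0.1, no filter, a mean of at least 5 FPKM, other scalings, a replicate block, sample weights, fits of fewer groups, leaving out each replicate, and the study's limits (adjusted p at most 0.001 and a log2 change of at least 1).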

Additional observations from a re-analysis of the deposited data

How the results depend on the processing

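The count of genes called lower after busulfan stayed within 1.5 times of its value under every alternative run, at 5 to 9 of the genes tested. The 9 came without a filter, where Piwil4 was called as well (-0.12, adjusted p = 0.0248, limma), and the lower counts from the stricter filter and the study's limits. With the replicate block the counts were 7, 7, 7 and 8 (B0, BA10, BA50 and over doses), and 0 in every AOS comparison and interaction. The numbers did not pair the samples in general, with same-number deviations correlating from -0.66 upwards. In 2 of 15 group pairs every correlation was over 0.1, namely B0 with BA50 (0.14 to 0.56) and BA10 with BA50 (0.35 to 0.67). A replicate block in a fit of B0 and BA50 alone, added after the data were seen, gave 0 genes, with far fewer residual degrees of freedom. Fits of only the groups compared could not differ from the reported one over all doses, so none was run there.

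The AOS counts moved with sample weights. Weighted by the default estimate, which stopped before convergence, 2 genes were called in A10 against A0, 7 in A50 against A0 and 5 in BA50 against B0. Of all genes tested, 20.7%, 37.7% and 24.5% were called in either direction, and 7.75%, 17.5% and 13.2% were called higher. With weights estimated gene by gene, an alternative added after the data were seen, A50 against A0 gave 6 (all but Piwil2, Asz1 and Gtsf1) and BA50 against B0 gave 1 (Henmt1). Over all genes, 4322 (27.4%) and 1552 (9.83%) were called in either direction instead of 0 and 15, and 13.8% and 5.89% were called higher. In both sets A10 replicate 3 had the lowest weight, 0.11 and 0.13. Leaving out replicates gave 0 to 2 for BA50 against B0. The Piwil2 to Ddx4 ratio ranged from -0.89 to -0.45 with replicates left out.

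Among the differences given, other scalings turned no direction, and the reversals under the remaining alternatives were all in differences that were not called. With replicates left out, Gtsf1 ranged from -0.50 to 0.05 in BA10 against A10 and from -0.20 to 0.17 in BA50 against A50, where both sets of weights turned it to 0.09 and 0.05. In A10 against A0, Mov10l1 ranged from -0.09 to 0.19 with replicates left out and Piwil2 from -0.23 to 0.09, and weights turned Piwil2 to 0.15 and 0.10. In BA10 against B0, Asz1 ranged from -0.06 to 0.40 and Piwil2 from -0.23 to 0.05 with replicates left out, and weights turned Asz1 to -0.04 and -0.02. The cause was not tested. Depth is unknown, so values under 1 FPKM, such as those of Mov10l1 and Piwil4, carry an error that cannot be stated.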
